A study of Mus musculus with 11 samples.

Results

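Bone of the tooth socket was followed through 5 osteoblast genes, *Runx2*, *Sp7*, *Alpl*, *Ibsp* and *Spp1*, in bulk RNA-seq of the mouse maxillary molar tooth germ at embryonic day 14.5. They were chosen by gene symbol as markers of bone-forming cells, and all 5 are among the 16755 genes of the expression table. RNA came from 4 wild-type (*Cilk1*+/+) libraries, 4 *Cilk1*-/- libraries and 3 libraries of *Cilk1*-/-;PCS1-MRCS1△/△ embryos, called compound mutants here, with germs pooled as n = 6 per biological replicate. *Cilk1*-/- mice lack exon 6 of *Cilk1*, which encodes a kinase of the primary cilium, after recombination by EIIa-Cre, a Cre that acts in the early embryo and therefore in the whole body. Compound mutants carry that deletion as well as loss of the 70 kb from PCS1 to MRCS1, and a group with the second deletion alone was not analysed here. The comparisons therefore ask how bone genes around the germ stood after loss of *Cilk1*, and what the added deletion changed.

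Alveolar bone forms directly from mesenchyme, without a cartilage model, around each tooth germ. *Runx2* encodes the transcription factor that commits mesenchymal cells to the osteoblast lineage, and *Sp7* (osterix) encodes the factor that acts after it. *Alpl* encodes tissue-nonspecific alkaline phosphatase, which removes pyrophosphate, an inhibitor of mineral growth. *Ibsp* (bone sialoprotein) and *Spp1* (osteopontin) encode acidic, mineral-binding proteins of the matrix. None of these genes is exclusive to bone: *Runx2* is also active in dental mesenchyme, *Alpl* in several epithelia and *Spp1* in macrophages. In pooled tissue, fewer osteoblasts and less RNA per osteoblast cannot be told apart.

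The targeted gene, listed under its older symbol *Ick*, had log2 values of 3.53 ± 0.0751 (SD, n = 4) in wild-type, 2.80 ± 0.0661 (n = 4) in *Cilk1*-/- and 2.64 ± 0.0317 (n = 3) in compound mutant libraries. All values below are deposited log2 values, read as log2(value + 1) of a quantity that is probably FPKM. A "linear" value is 2 raised to that number, minus 1. Compound mutant 1 stood apart from the other libraries on the first principal component, at -48.5, and compound mutant 3 on the second, at -28.9. In the protocol texts, wild-type 4, *Cilk1*-/- 4 and the 3 compound mutants form one set and the other 6 libraries another, so genotype and set are partly mixed.

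*Ibsp* and *Spp1* are neighbours on chromosome 5, in a cluster of genes for acidic mineralised-tissue proteins. *Ibsp* lies at chr5:104299171-104311469 and *Spp1* at chr5:104435118-104441050, both on the plus strand of GRCm38, and their starts are 135947 bp apart. *Runx2* lies at chr17:44495987-44814797, *Sp7* at chr15:102356606-102367182 and *Alpl* at chr4:137741733-137796384, all on the minus strand. Promoter windows of 300 bases, from 250 before to 50 after an annotated start, were found in RefSeq (GRCm38.p6) for 4 of the 5 genes, and *Sp7* had no entry. They are shown for *Runx2*, the lineage regulator, and for *Ibsp* and *Spp1*, which varied together. Each reads 5′ to 3′ along the gene, and capitals mark ACCACA, the reverse complement of TGTGGT, the core that Runx proteins bind.
Runx2, chr17:44814578-44814877, minus strand: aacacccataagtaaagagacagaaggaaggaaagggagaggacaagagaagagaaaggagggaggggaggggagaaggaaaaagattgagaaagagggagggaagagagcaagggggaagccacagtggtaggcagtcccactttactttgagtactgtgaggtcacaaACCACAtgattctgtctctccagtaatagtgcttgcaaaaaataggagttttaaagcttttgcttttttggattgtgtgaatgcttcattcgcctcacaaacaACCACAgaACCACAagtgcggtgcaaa
Ibsp, chr5:104299037-104299336, plus strand: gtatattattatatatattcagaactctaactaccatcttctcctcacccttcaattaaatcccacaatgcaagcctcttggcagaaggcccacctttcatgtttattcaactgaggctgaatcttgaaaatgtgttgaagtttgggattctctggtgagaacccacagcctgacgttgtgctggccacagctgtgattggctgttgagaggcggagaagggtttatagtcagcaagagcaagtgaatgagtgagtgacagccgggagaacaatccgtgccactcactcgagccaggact
Spp1, chr5:104434861-104435160, plus strand: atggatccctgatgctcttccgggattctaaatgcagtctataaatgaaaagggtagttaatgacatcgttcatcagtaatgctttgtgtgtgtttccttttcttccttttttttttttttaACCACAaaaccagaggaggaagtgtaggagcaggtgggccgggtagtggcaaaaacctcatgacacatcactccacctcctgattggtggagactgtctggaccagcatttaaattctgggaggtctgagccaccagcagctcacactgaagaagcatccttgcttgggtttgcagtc

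The *Runx2* window held 3 matches to the core, at -80, 23 and 31 from the start, and the *Spp1* window held 1, at -128. The *Ibsp* window held none, and neither did the other 3 windows searched, both *Alpl* starts and a second *Spp1* start. Of 32851 promoter windows of the same length, 16.8% held the core on either strand. All 4 matches were also part of the longer AACCACA, which contains the core and was present in 5.27% of windows. These are matches of letters and were not tested as sites.

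*Runx2* differed little between wild-type and *Cilk1*-/- libraries and was lower in compound mutants. Its log2 values were 5.5, 5.47, 5.29 and 5.55 in wild-type libraries 1 to 4. They were 5.46, 5.57, 5.65 and 5.49 in *Cilk1*-/- libraries 1 to 4, and 4.83, 5.35 and 4.96 in compound mutants 1 to 3. Every compound mutant lay below every *Cilk1*-/- library, whereas compound mutant 2 lay above wild-type 3.

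In the fit over all genes with limma, *Runx2* was -0.50 ± 0.110 (SE) on the log2 scale in compound mutant against *Cilk1*-/- libraries, with an adjusted p of 0.0417 and a 95% interval from -0.74 to -0.25. The size stayed under the 1.5-fold minimum for a call, and 3.33% of all genes passed the adjusted p alone in that comparison. With the replicate number as a block the limma adjusted p rose to 0.192, although the labels give the compound mutants no pairing. With the compound mutants placed in the block of number 4 instead, it was 0.822. Without compound mutant 2 the difference was -0.65 with an adjusted p of 0.00343. Without compound mutant 1 the difference was -0.39. With 1 library left out in turn, the limma adjusted p reached 0.113 and was under 0.05 in 2 of 11 fits. Against wild-type, *Runx2* was -0.41 ± 0.110 in compound mutants, with a limma adjusted p of 0.0531. That p was 0.163 with the replicate block and 0.654 with the compound mutants in the block of number 4. Without compound mutant 2 that difference was -0.56, with a limma adjusted p of 0.00272, and without compound mutant 1 it was -0.30. There the limma adjusted p reached 0.140 and was under 0.05 in 1 of 11 fits with 1 library left out. The exact permutation test, two-sided, gave p = 0.0286 against *Cilk1*-/-, the smallest that 35 splits allow, and p = 0.0571 against wild-type. Within the protocol set of the compound mutants, wild-type 4 and *Cilk1*-/- 4 stood at 5.55 and 5.49, above all 3 compound mutants. With the set as a term, the differences were -0.52 against *Cilk1*-/- and -0.43 against wild-type, with limma adjusted p of 0.288 and 0.264.

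Markers of other tissues also differed among the compound mutants, of which 1 and 3 had the 2 lowest *Runx2* values. Cartilage markers set only compound mutant 1 far apart. The summed linear level of 7 dental mesenchyme markers was 333 in compound mutant 1, 596 in compound mutant 2 and 451 in compound mutant 3. It ranged from 594 to 659 in wild-type and from 507 to 588 in *Cilk1*-/- libraries. Of the same 3 compound mutants, the first had a sum of 644 over 8 cartilage markers, and the other 2 had 44.8 and 50.3, against 24 to 30.3 in wild-type and 26.7 to 38.5 in *Cilk1*-/- libraries. Neuron markers, 6 in number, summed to 191, 31.9 and 60.3 in compound mutants 1 to 3, against 17.1 to 22.7 in wild-type and 27.8 to 30.4 in *Cilk1*-/- libraries. The part of these tissues in the *Runx2* difference was not tested.

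*Sp7* showed no difference between genotypes beyond the spread of its libraries. The log2 values were 4.84, 4.72, 5.01 and 4.76 in wild-type 1 to 4, and 4.94, 5.07, 4.84 and 5.01 in *Cilk1*-/- 1 to 4. Compound mutants 1 to 3 had 4.14, 4.97 and 5.13, so the genotype held both the lowest and the highest *Sp7* value of the series. *Cilk1*-/- minus wild-type was 0.13 ± 0.178 with a 95% interval from -0.26 to 0.53. The limma adjusted p was 0.731 in that comparison, 0.818 for compound mutant against wild-type and 0.535 for compound mutant against *Cilk1*-/-. Compound mutant minus *Cilk1*-/- moved from -0.22 to 0.09 without compound mutant 1.

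*Alpl* was the most abundant of the 5 genes in 9 of 11 libraries, if the values are per transcript length as FPKM are. Wild-type 1 to 4 had log2 values of 5.99, 5.67, 5.93 and 5.62. *Cilk1*-/- 1 to 4 had 5.87, 6.38, 6.18 and 6.35, and compound mutants 1 to 3 had 5.49, 5.96 and 6.48. *Cilk1*-/- libraries 2, 3 and 4 exceeded every wild-type library and *Cilk1*-/- 1 did not. The difference of 0.39 ± 0.191, with a 95% interval from -0.03 to 0.81, did not pass the test (limma adjusted p = 0.280, exact permutation p = 0.0857). *Alpl* was higher in the *Cilk1*-/- library of 3 of 4 same-numbered pairs. The exact permutation test within those pairs gave p = 0.25, where the smallest possible is 0.125.

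*Ibsp* varied far more within each genotype than between genotypes. Its log2 values were 4.0, 4.02, 6.47 and 4.92 in wild-type 1 to 4, and 4.33, 5.23, 2.88 and 3.63 in *Cilk1*-/- 1 to 4. Compound mutants 1 to 3 had 2.93, 7.42 and 4.08. The highest linear value, in compound mutant 2, was 26.6 times the lowest, in *Cilk1*-/- 3. Within a genotype, the highest library exceeded the lowest 5.83-fold in wild-type, 5.71-fold in *Cilk1*-/- and 25.6-fold in compound mutants. In wild-type 3 and compound mutant 2, *Ibsp* passed *Alpl* as the most abundant of the 5.

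The genotype means of *Ibsp* were 4.85 ± 1.16 (SD, n = 4) in wild-type, 4.02 ± 0.999 (n = 4) in *Cilk1*-/- and 4.81 ± 2.33 (n = 3) in compound mutants. *Cilk1*-/- minus wild-type was -0.83 with a 95% interval from -2.88 to 1.21 (limma adjusted p = 0.663). The interval for compound mutant minus wild-type ran from -2.25 to 2.16, and that for compound mutant minus *Cilk1*-/- from -1.41 to 3.0. These libraries therefore leave room for a difference of more than 4-fold in either direction between compound mutant and wild-type germs.

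*Spp1* had the lowest value of the 5 genes in every library. It stood at 1.5, 2.05, 4.13 and 2.05 in wild-type 1 to 4, at 1.88, 1.60, -0.02 and 1.20 in *Cilk1*-/- 1 to 4, and at 1.69, 4.02 and 3.09 in compound mutants 1 to 3. The highest linear value was 16.5, in wild-type 3, and the value of *Cilk1*-/- 3 lay just below 0, so no ratio is given. *Cilk1*-/- 1 was above wild-type 1, and also above compound mutant 1, so the genotypes overlapped.

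For *Spp1*, *Cilk1*-/- minus wild-type was -1.27 ± 0.651 on the log2 scale, with a 95% interval from -2.71 to 0.17 (limma adjusted p = 0.301, exact permutation p = 0.0857). Without wild-type 3 it was -0.70. For the full difference, the exact permutation test within same-numbered pairs gave p = 0.25, where the smallest possible is 0.125. Compound mutant minus *Cilk1*-/- was 1.77 ± 0.703, with a 95% interval from 0.22 to 3.33 (limma adjusted p = 0.170, exact permutation p = 0.0571). With a pseudocount of 0.1 in place of 1, these differences became -2.17 and 2.77, with limma adjusted p of 0.271 and 0.175. Macrophages are another source of *Spp1*. The summed linear level of 5 macrophage markers ranged from 32.2 to 40.6 in wild-type, from 33.5 to 39.8 in *Cilk1*-/- and from 26.0 to 38.3 in compound mutant libraries. Over the 11 libraries, r of *Spp1* with the 5 macrophage markers ranged from -0.45 for *Csf1r* to 0.10 for *C1qb*. The part of macrophages in the *Spp1* values was not tested.

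**Figure D1:**
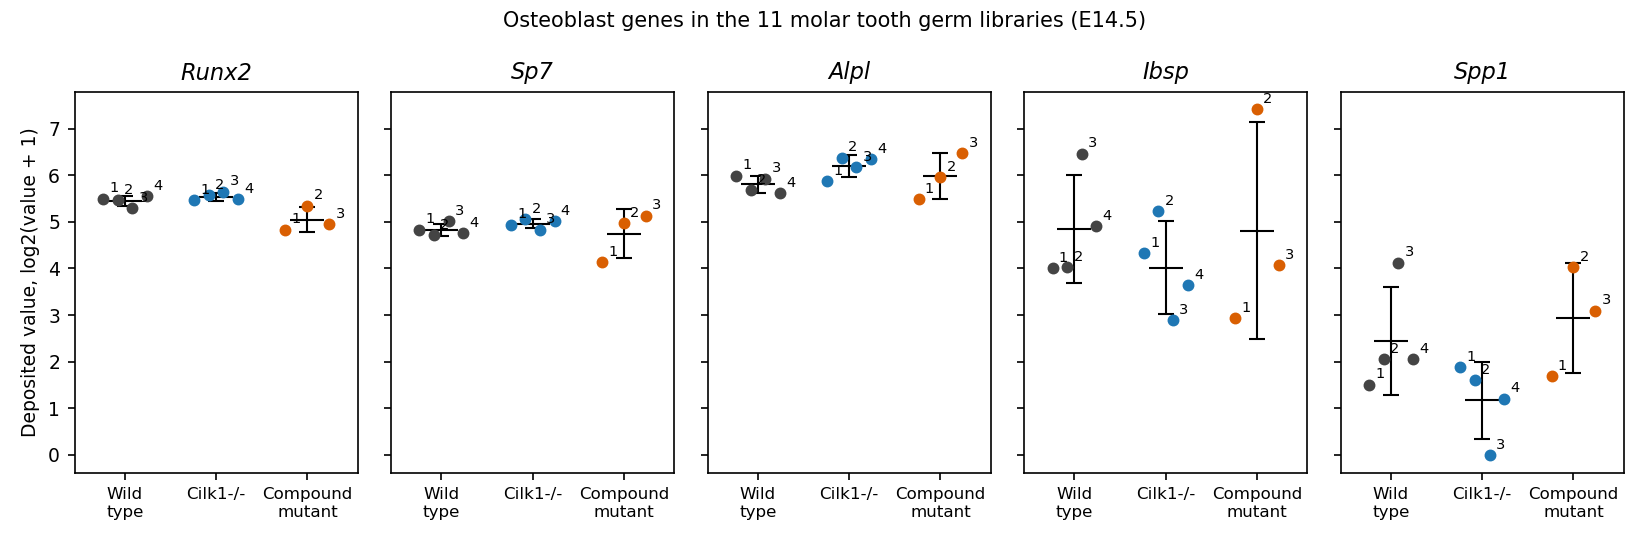
Deposited log2 values of the 5 genes (y axis) in each library, by genotype (x axis). Each point is a library and carries its replicate number, and bars show the mean and SD of 4, 4 and 3 libraries. *Runx2* in compound mutants lies below every *Cilk1*-/- library, and *Ibsp* and *Spp1* spread widest, with wild-type 3 and compound mutant 2 at the top.

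None of the 5 genes was called in any comparison, where a call needed a limma adjusted p under 0.05 and at least a 1.5-fold change. In *Cilk1*-/- against wild-type, 0 of 5 were called, and 0.370% of all genes were. In compound mutant against wild-type, 0 of 5 were called beside 1.25% of all genes, and in compound mutant against *Cilk1*-/-, 0 of 5 beside 0.543%. At an unadjusted p under 0.05 the counts were 0, 1 (*Runx2*) and 2 (*Runx2* and *Spp1*) of 5, beside 20.7%, 26.7% and 23.2% of all genes. *Runx2* in compound mutant against *Cilk1*-/- was the only one of the 15 gene and comparison pairs without overlap between groups, and 17.0% of all genes had none there. Between wild-type and *Cilk1*-/- libraries 20.9% of all genes did not overlap, and between wild-type and compound mutant libraries 18.0%. The compound mutant libraries enter 2 of these comparisons and each other genotype enters 2, so the comparisons share libraries.

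**Figure D2:**
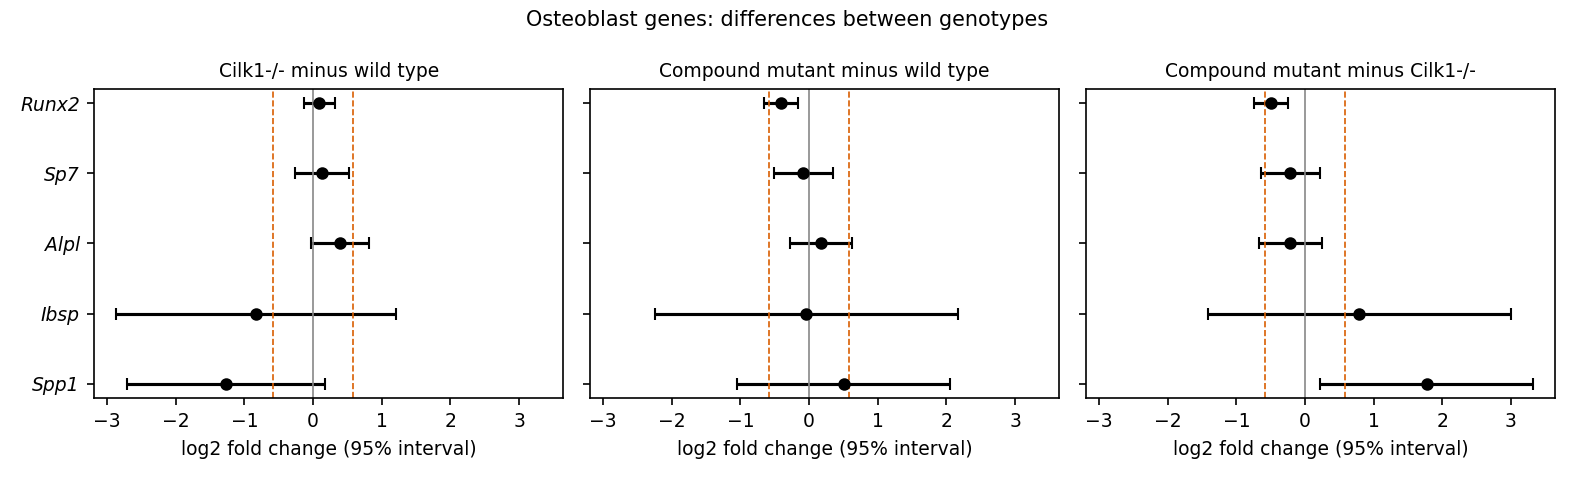
Log2 fold change of the 5 genes (x axis) in the 3 comparisons, with points for the limma estimate and bars for its 95% interval. The intervals of *Ibsp* and *Spp1* are several times wider than that of *Runx2*, whose interval lies below 0 in both comparisons that involve the compound mutant.

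Among the 5 genes, the spread within genotypes was least for *Runx2* and largest for *Spp1* and *Ibsp*. The pooled within-genotype SD was 0.160 for *Runx2*, 0.286 for *Sp7*, 0.307 for *Alpl*, 1.05 for *Spp1* and 1.49 for *Ibsp*, on the log2 scale. Of 16755 genes, only 2 had a larger SD than *Ibsp*, *Gm12191* and the embryonic globin gene *Hbb-y*, and 23 had a larger SD than *Spp1*. Among genes whose mean lay within 0.5 of their own, *Ibsp* stood at percentile 99.96 and *Spp1* at 99.7, and *Alpl*, *Sp7* and *Runx2* at 97.5, 96.7 and 89.7. All 5 were thus more variable than most genes of similar level.

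**Figure D3:**
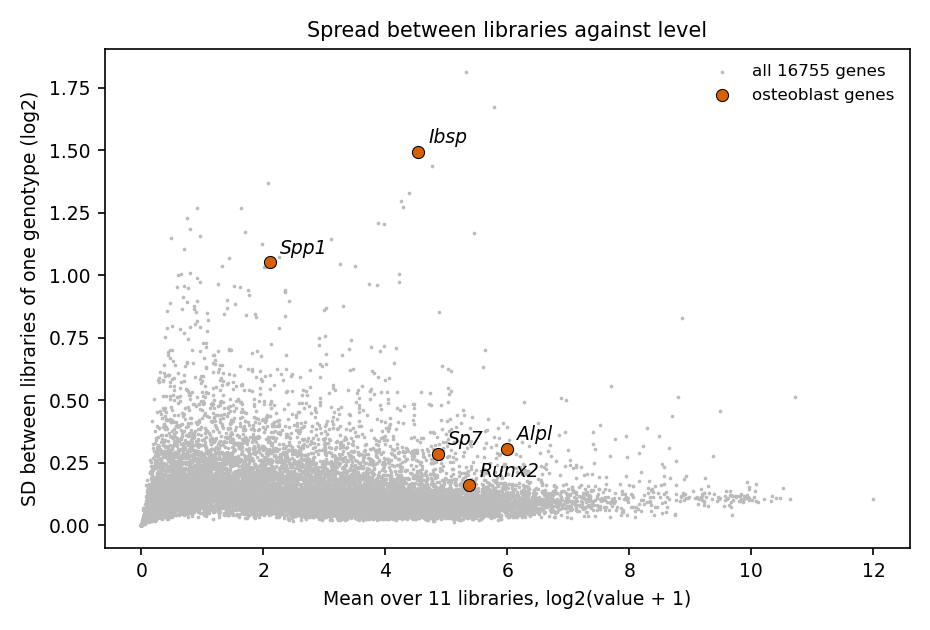
Within-genotype SD on the log2 scale (y axis) against the mean log2 value over 11 libraries (x axis) for all 16755 genes, with the 5 osteoblast genes marked. *Ibsp*, at an SD of 1.49, and *Spp1*, at 1.05, lie above nearly all genes of similar mean.

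Wild-type and *Cilk1*-/- libraries of the same number mirrored each other in all 5 genes. In number 3, *Ibsp* lay 1.62 above the wild-type mean and 1.14 below the *Cilk1*-/- mean. For *Spp1*, the library of that number was 1.69 above in wild-type and 1.18 below in *Cilk1*-/-. Over the 4 numbers, the correlation of wild-type with *Cilk1*-/- deviations was -0.90 for *Runx2*, -0.99 for *Sp7*, -0.90 for *Alpl*, -0.90 for *Ibsp* and -0.98 for *Spp1*. The pattern is shared by the whole table, in which the same-number correlations over all genes were -0.741, -0.892, -0.848 and -0.792. It means that the high matrix genes of wild-type 3 and the low ones of *Cilk1*-/- 3 are not independent observations, and how the mirroring arose was not tested. Without wild-type 3, the *Ibsp* difference between *Cilk1*-/- and wild-type shrank from -0.83 to -0.30, and without *Cilk1*-/- 3 to -0.46.

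**Figure D4:**
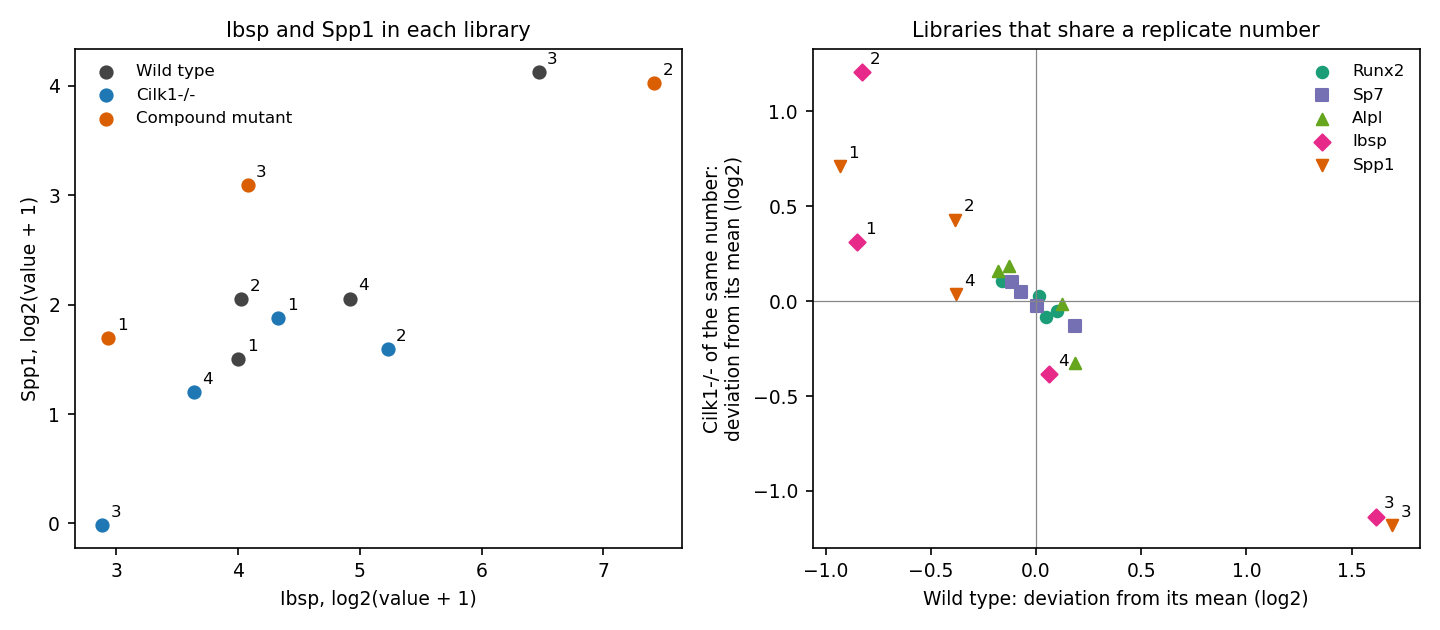
Deviation of each wild-type library from its genotype mean (x axis, log2) against that of the *Cilk1*-/- library with the same number (y axis, log2), for the 5 genes and 4 numbers. Points run from upper left to lower right, and number 3 of *Ibsp* and *Spp1* lies farthest out, at 1.62 and -1.14 and at 1.69 and -1.18.

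Of the 5 genes, *Ibsp* varied with *Spp1* and *Sp7* with *Alpl* across libraries, and the first relation weakened without 2 libraries. These correlations are descriptions over 11 libraries that share the mirroring and 3 genotypes. *Ibsp* and *Spp1* had Pearson r = 0.82 and Spearman rho = 0.76, with r = 0.87 within genotypes. Without the 2 libraries farthest from the median of *Ibsp*, r was 0.48 over 9 libraries, so much of the relation rests on those 2. *Sp7* and *Alpl* had r = 0.78 and rho = 0.84, with r = 0.74 over 9 libraries. *Runx2* ranged from r = -0.41 with *Spp1* to 0.41 with *Sp7*. Without the 2 libraries farthest from the median of *Runx2*, its r with *Spp1* was -0.92 and with *Sp7* -0.33 over 9 libraries, so these values hang on few libraries.

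The genes nearest in pattern differed for each of the 5, among 13027 genes with a mean of at least 1. For *Ibsp* they were *Slc13a5*, a citrate transporter (r = 0.97), *Phospho1*, a phosphatase of matrix vesicles (0.95), and *Zfp850* (0.95). For *Alpl* they were *Tnfrsf19*, a receptor of the TNF family (0.97), *Apcdd1*, an inhibitor of Wnt signalling (0.96), and *Fgf4*, a signal of the enamel knot (0.96). *Runx2* was nearest to *Pou3f3*, a POU transcription factor, *Mgmt*, a DNA repair enzyme, and *Socs6*, all at 0.97. The nearest to *Sp7* were *Mpped1* (0.96), *Klhl42* (0.95) and *Cpsf4l* (0.95), and to *Spp1* *Fam207a* (0.95), *Aen* (0.95) and *Car3*, a carbonic anhydrase (0.95). Without compound mutant 1, *Mpped1* dropped to r = 0.82 with *Sp7*.

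*Runx2* is known to be active in dental mesenchyme, and 3 of the 7 markers of that tissue had r above 0.5 with it, beside 18.1% of all genes compared. Its r was 0.91 with *Lhx8*, 0.89 with *Msx1* and 0.87 with *Lhx6*, homeobox genes of the jaw and dental mesenchyme. It was 0.47 with *Barx1*, 0.43 with *Pax9*, 0.36 with *Bmp4* and -0.17 with *Fgf3*. Without the 2 libraries farthest from the median of *Runx2*, the 3 highest became 0.38, 0.43 and 0.05 over 9 libraries, and the other 4 ranged from -0.74 to 0.05. Over the 11 libraries, 4 of 5 erythroid markers and 3 of 6 dental epithelium markers also had r above 0.5 with *Runx2*. The relation is therefore not particular to dental mesenchyme.

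Later bone genes took part in the pattern of *Ibsp* and *Spp1*. In both, wild-type 3 was the highest wild-type, *Cilk1*-/- 3 the lowest *Cilk1*-/- and compound mutant 2 the highest compound mutant, a combination found in 8.06% of all genes. The bone matrix list held 10 genes in the table, of which *Bglap* (osteocalcin), *Dmp1* and *Ifitm5* had the same combination. Of 7 mineralization genes, *Phospho1* and *Phex*, a peptidase that limits matrix inhibitors, had it too. The 3 libraries were picked after their *Ibsp* values were seen.

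*Phospho1* stood at 1.39, 1.46, 2.88 and 1.64 in wild-type 1 to 4, at 1.45, 1.62, 0.33 and 1.0 in *Cilk1*-/- 1 to 4 and at 0.86, 3.45 and 0.64 in compound mutants 1 to 3. *Ifitm5*, an osteoblast membrane protein, stood at 2.92, 2.43, 3.72 and 2.92, then 2.63, 3.46, 2.27 and 2.58, then 2.64, 4.33 and 2.20 in the same order. *Bglap* was near the bottom of the scale in most libraries, with 0.78, 0.53, 2.06 and 0.40 in wild-type, 0.46, 0.76, -0.36 and 0.68 in *Cilk1*-/- and 0.43, 0.87 and 0.51 in compound mutants. Late osteoblast genes were thus present at low values next to *Alpl*, and the RNA contained early osteoblast genes in every library. *Bglap2*, *Bglap3*, *Mepe* and *Dspp* had no entry under these symbols among the 16755 genes, so they could not be analysed here.

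**Figure D5:**
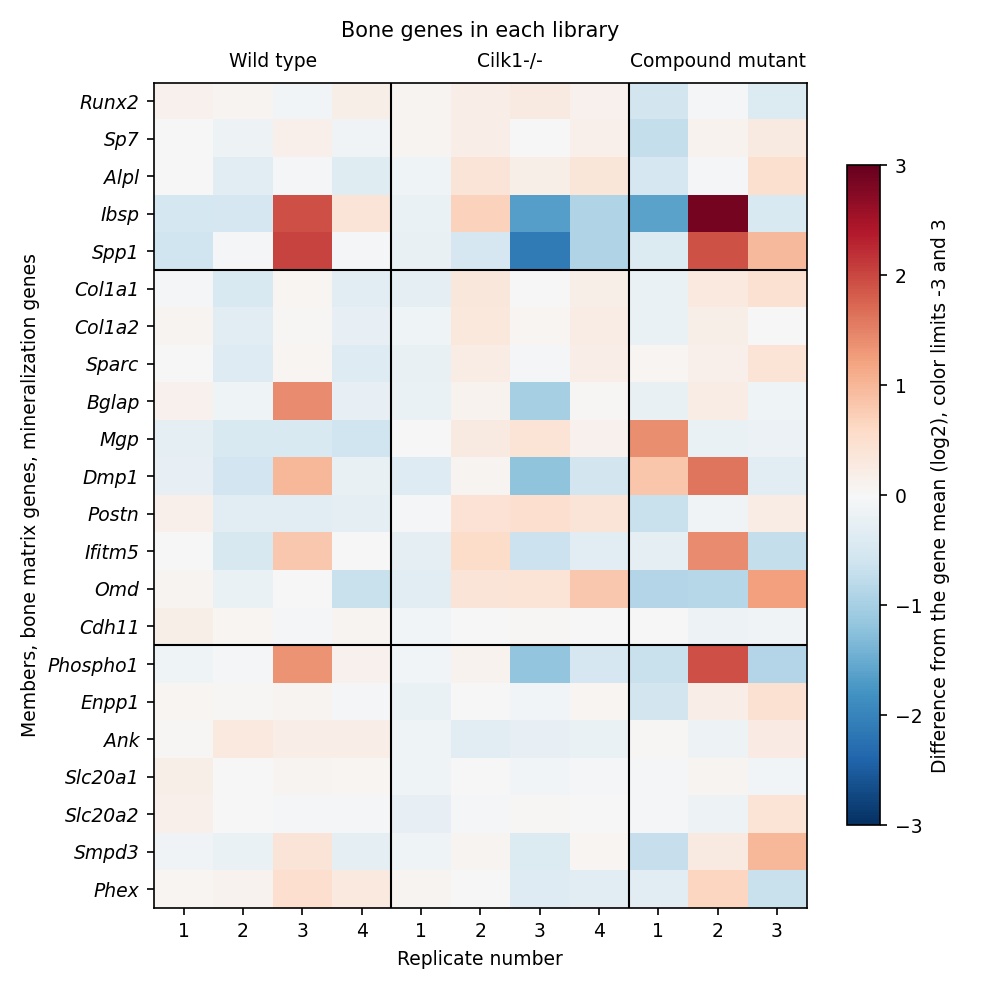
Deviation of each listed bone gene from its mean over 11 libraries (colour, log2) by library (columns). *Ibsp*, *Spp1*, *Dmp1*, *Ifitm5*, *Phospho1* and *Phex* are high in wild-type 3 and compound mutant 2 and low in *Cilk1*-/- 3. *Bglap* is high in wild-type 3 and low in *Cilk1*-/- 3. In compound mutant 2 its log2 value of 0.87 lies close to the 0.78 of wild-type 1.

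The other osteogenic genes showed few calls. Of 12 further osteoblast regulators, 0 were called in any comparison. *Zfp521*, a zinc-finger antagonist of Runx2, was 0.26 ± 0.0555 in *Cilk1*-/- against wild-type (limma adjusted p = 0.0412, 0.197 with the block). It was under 1.5-fold, and 2.44% of all genes passed the adjusted p alone in that comparison.

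Neither matrix nor mineralization genes were called, 0 of 10 and 0 of 7 in each comparison. All 7 mineralization genes had negative estimates in *Cilk1*-/- against wild-type, from -0.74 for *Phospho1* to -0.05 for *Smpd3*. All 7 were positive in compound mutant against *Cilk1*-/-, a comparison that uses the same *Cilk1*-/- libraries, and 3 genes were positive and 4 negative in compound mutant against wild-type libraries. The list medians were -0.14, 0.14 and -0.09 in that order, beside medians within 0.01 of 0 over all genes. Only *Ank*, a pyrophosphate exporter, passed the adjusted p, in *Cilk1*-/- against wild-type, at -0.40 ± 0.0837 (limma adjusted p = 0.0397, 0.161 with the block). In that comparison 2.44% of all genes passed the adjusted p alone. In compound mutant against *Cilk1*-/-, *Dmp1*, another acidic matrix protein, had the largest estimate of its list, 1.21 ± 0.487 (adjusted p = 0.175).

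Among 11 osteogenic signals, 1 was called, in compound mutants against wild-type, where 1.25% of all genes were called. *Sost*, which encodes the Wnt inhibitor sclerostin, fell there by 0.67 on the log2 scale (SE 0.157, limma adjusted p = 0.0357, 0.157 with the block). With the compound mutants in the block of number 4, the adjusted p was 0.649. In *Cilk1*-/- against wild-type, *Sost* was already -0.58 ± 0.146 (limma adjusted p = 0.0638). Its log2 values were low, from 0.68 to 1.12 in wild-type, from 0.12 to 0.56 in *Cilk1*-/- and from 0.03 to 0.48 in compound mutant libraries. In compound mutants against wild-type, *Tnfsf11*, the osteoclast-inducing ligand RANKL, was -0.48 ± 0.0947 (limma adjusted p = 0.0193, 0.148 with the block). *Csf1*, a growth factor of macrophages and osteoclasts, was -0.35 ± 0.0678 (adjusted p = 0.0190, 0.122 with the block). Neither reached 1.5-fold, and 6.58% of all genes passed the adjusted p alone there.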

How the data were processed

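Poly(A) RNA of maxillary molar germs was sequenced in 4 wild-type, 4 *Cilk1*-/- and 3 compound mutant libraries. The submitters' processing notes name HISAT2 2.0.5 and featureCounts 1.5.0-p3, with mm10. The authors deposited log2 values for 16755 genes, which are taken here as FPKM-like values with 1 added before the log, since the unit is not given. Of these genes, 257 have a value below 0, which a log taken after adding 1 cannot give. Counts were not used here and depth is unknown, so precision rests on the spread between libraries. Linear values sum to between 339970 and 364615 per library.

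All genes were fitted with limma 3.58.1 in R 4.3.3 (lmFit, then eBayes with trend and robust), with 3 genotypes in one model. Calls needed a Benjamini-Hochberg adjusted p under 0.05 over 16755 genes and a 1.5-fold change. The fit was tested on simulated data. Exact permutation tests were two-sided, and those within pairs swapped wild-type and *Cilk1*-/- libraries of the same number. The 5 genes, the gene lists and the naming rule (called genes, the extreme fold changes of each list and the 3 genes nearest to each member) were chosen with earlier results of these data known. No statement ties each library to a separate litter, so p-values measure the spread between libraries. Gene positions are from GENCODE M21.

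Same-numbered wild-type and *Cilk1*-/- libraries were checked for pairing. Their deviations had correlations of -0.741, -0.892, -0.848 and -0.792 over all genes. In 84 genes, both libraries of one number stood at 0. With the pair at 0 left out, the libraries of numbers 1 to 4 had correlations of 0.561, 0.558, 0.583 and 0.298. These rest on 29, 72, 67 and 84 genes, so number 4, with the weakest correlation, was never the pair at 0. The numbers were therefore taken to pair them, and the fit with the replicate block is given where it changed a call or an adjusted p across 0.05. For the compound mutant, the labels give no pairing. The sources used here do not say whether the values were adjusted by replicate number. Such an adjustment would make the SDs within genotypes and the p-values without the block too small, and it was not tested. The values of 1 gene of the osteoblast regulator list are not reported here.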

Additional observations from a re-analysis of the deposited data

Results flagged for a closer look

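None of the 5 osteoblast genes had a wild-type or *Cilk1*-/- library far from its genotype group by Dixon's test. The compound mutants, with 3 libraries, were not tested in this way. Of 114 groups of 4 libraries tested, which covered the 5 genes and the list genes that the naming rule picks, 4 had a gap above the 95% critical value, and chance gives about 5.7. *Zfp521* in wild-type had a ratio of 0.95, with wild-type 3 lowest at 3.84 and the next at 4.01. *Postn* in wild-type had a ratio of 0.942, with wild-type 1 highest at 8.82 and the next at 8.36. *Acp5*, an osteoclast phosphatase, had a ratio of 0.956 in wild-type, with wild-type 3 at 4.24 and the next at 3.77. *Myog*, a muscle transcription factor, had a ratio of 0.89 in *Cilk1*-/-, with *Cilk1*-/- 1 at 2.28 and the next at 1.27.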

How the results depend on the processing

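The 15 fold changes were recomputed under 20 alternatives each, 300 values in all, of which 288 kept their direction and their side of the threshold for a call, 1 (*Runx2* without compound mutant 2, against *Cilk1*-/-) reached the fold minimum and 11 changed sign. With the protocol set as a term, and with the compound mutants blocked with pair 4 (an alternative added after seeing the data), *Ibsp* in compound mutant against wild-type became 0.12. With 1 library left out in turn, the ranges in compound mutant against wild-type were -0.28 to 0.22 for *Sp7*, -0.076 to 0.42 for *Alpl*, -1.35 to 0.89 for *Ibsp* and -0.040 to 1.13 for *Spp1*. In compound mutant against *Cilk1*-/- they were -0.65 to -0.39 for *Runx2*, -0.41 to 0.090 for *Sp7*, -0.46 to 0.028 for *Alpl* and -0.51 to 1.73 for *Ibsp*. Signs changed without compound mutant 1 (*Sp7*, *Ibsp* and, against *Cilk1*-/-, *Sp7* and *Alpl*), 2 (*Spp1* and, against *Cilk1*-/-, *Ibsp*) or 3 (*Alpl*, *Ibsp*), and without wild-type 3 (*Ibsp*, 0.50). In compound mutant against *Cilk1*-/- with 1 library left out, the limma adjusted p of *Runx2* ran from 0.00343 to 0.113. It was under 0.05 in 2 of 11 fits, and 0 to 1 of the 5 genes were called. Over the 9 other alternatives in that comparison it ran from 0.0308 to 0.822, the latter with the compound mutants in pair 4. The adjusted p alone, or an unadjusted p with the fold minimum, gave 1 (*Runx2*) and 1 (*Spp1*) there. The cause of these changes was not tested. Against wild-type, *Runx2* ran from -0.56 to -0.30 with 1 library left out, with adjusted p from 0.00272 (without compound mutant 2) to 0.140. Over the 9 other alternatives its adjusted p ran from 0.0489 with quantile normalization to 0.654 with the compound mutants in pair 4. The replicate block left all 5 genes uncalled in each comparison, and the all-gene calls dropped from 62, 209 and 91 to 4, 26 and 2. Unknown depth limits what the low values of *Spp1* can show.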

Other observations

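Osteoclasts are the cells that resorb bone. Of 9 osteoclast markers, 7 had r above 0.5 with *Alpl* over the 11 libraries and 7 with *Sp7*, against 13.8% and 12.7% of all genes compared. For *Ibsp* and *Spp1* the count was 0 of 9 each, beside 15.6% and 13.2% of all genes compared. Dental epithelium markers showed the like, with 4 of 6 above 0.5 for *Alpl* and 4 of 6 for *Sp7*. With *Sp7* their median r was 0.77 against 0.63 for osteoclast markers, and with *Alpl* it was 0.63 against 0.79. Endothelium markers had 2 of 4 above 0.5 with *Alpl* and 0 of 4 with *Sp7*, so the relation is not particular to osteoclasts. *Alpl* had r = 0.82 with *Mmp9*, 0.82 with *Itgb3* and 0.82 with *Ocstamp*, and -0.04 with *Calcr*. These are descriptions of 11 libraries that share the mirroring of same-numbered pairs, and no osteoclast gene was called in any comparison. The summed linear level of the 9 markers ranged from 84.9 to 111 in wild-type, from 85.6 to 122 in *Cilk1*-/- and from 68.3 to 119 in compound mutant libraries.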
